A study of Homo sapiens with 6 samples.

Results

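Of the 60664 genes in the table, 9 are described here: the genes of the MHC class I complex and of the machinery that loads it with peptide. They were chosen by symbol, as HLA-B, HLA-C, HLA-E, HLA-F, B2M, TAP1, TAP2, TAPBP and NLRC5, with earlier results of these data known, and all 9 were found. RNA was sequenced from SW480, an established human colorectal adenocarcinoma line labelled wild type, after treatment with Amuc_0904 (3 libraries) or with buffer (3 libraries). The form of the name Amuc_0904 is that of a locus tag from the gut bacterium Akkermansia muciniphila, and neither its preparation, dose nor exposure time is labelled. Nothing labelled states that replicates were separate cultures, so p-values measure the spread between libraries of 1 cell line, which may be technical.

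MHC class I molecules display short peptides from inside the cell to CD8 T cells and to inhibitory receptors of natural killer cells. A polymorphic heavy chain pairs with the invariant light chain beta-2-microglobulin, the TAP transporter carries proteasome products into the endoplasmic reticulum, and tapasin holds an empty class I molecule beside TAP until a peptide binds. Interferons, NF-kB and the transactivator NLRC5 are known to raise transcription of these genes, and colorectal tumours often lose part of the pathway.

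The values are in TPM, a within-library abundance scaled by transcript length, so levels can be compared between genes. TPM is a share of a fixed total, so comparisons between libraries also depend on what else each library holds. Ribosomal protein genes held from 18.5% of TPM (buffer replicate 2) to 21.5% (Amuc_0904 replicate 1). Mitochondrial genes held from 9.86% (Amuc_0904 replicate 1) to 12.8% (Amuc_0904 replicate 3). The library sums were between 996107 and 997036 TPM, with 14244 to 14586 genes at 1 TPM or more, and the read depth behind them is unknown. All 9 genes passed the filter of at least 1 TPM in at least 3 libraries. The label of a colorectal epithelial line was checked against 8 fixed markers. KRT8, KRT18, KRT19, EPCAM and CDX2 were expressed at summed levels of 7088 to 7377 TPM for the 8 markers in Amuc_0904 libraries, against 7900 to 8142 TPM in buffer libraries. VIL1 stayed near or under 1 TPM, and CDH17 and LGALS4 were at or near 0. The leukocyte marker PTPRC was listed at 0 in all 6 libraries, and the 10 markers of other cell types summed to 6.55 to 6.99 TPM in Amuc_0904 libraries and 5.98 to 7.65 TPM in buffer libraries. In bulk RNA such as this, fewer cells with a transcript and less of it per cell cannot be told apart.

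Sequence upstream of the class I genes is shown because known response elements can be read both in genes whose levels separated by treatment (B2M, HLA-B) and in genes whose levels overlapped (HLA-C, TAP1). Of the 9 genes, 7 had windows in the RefSeq table (GRCh38.p14), 1 each except TAP1 with 2, each reaching from 250 bases before the transcript start to 50 after it. Shown 5′ to 3′ on the gene's own strand are B2M (chr15:44711267-44711566, plus strand), HLA-B (chr6:31357130-31357429, minus strand), HLA-C (chr6:31272043-31272342, minus strand) and the upstream of the 2 TAP1 windows (chr6:32853655-32853954, minus strand). Capitals mark matches on either strand to the interferon response core AANNGAAA, to the 10-letter NF-kB consensus and to the CCAAT box.
B2M: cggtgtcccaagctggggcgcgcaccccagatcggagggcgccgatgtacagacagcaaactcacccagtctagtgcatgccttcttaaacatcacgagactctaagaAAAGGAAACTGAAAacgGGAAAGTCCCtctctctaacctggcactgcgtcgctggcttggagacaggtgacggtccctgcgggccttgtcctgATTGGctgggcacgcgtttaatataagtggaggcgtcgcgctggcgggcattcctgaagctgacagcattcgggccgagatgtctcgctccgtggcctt
HLA-B: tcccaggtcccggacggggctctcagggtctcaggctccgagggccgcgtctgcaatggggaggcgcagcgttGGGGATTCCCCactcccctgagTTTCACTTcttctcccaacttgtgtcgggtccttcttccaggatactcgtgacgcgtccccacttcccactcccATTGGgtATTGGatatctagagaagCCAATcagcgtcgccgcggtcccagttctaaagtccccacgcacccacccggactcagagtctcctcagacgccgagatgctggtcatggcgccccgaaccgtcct
HLA-C: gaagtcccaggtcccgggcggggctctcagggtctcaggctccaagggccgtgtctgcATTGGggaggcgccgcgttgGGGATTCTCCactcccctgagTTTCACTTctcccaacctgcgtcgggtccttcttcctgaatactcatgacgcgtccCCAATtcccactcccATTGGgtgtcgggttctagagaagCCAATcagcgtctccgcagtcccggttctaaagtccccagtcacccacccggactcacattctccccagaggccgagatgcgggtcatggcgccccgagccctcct
TAP1: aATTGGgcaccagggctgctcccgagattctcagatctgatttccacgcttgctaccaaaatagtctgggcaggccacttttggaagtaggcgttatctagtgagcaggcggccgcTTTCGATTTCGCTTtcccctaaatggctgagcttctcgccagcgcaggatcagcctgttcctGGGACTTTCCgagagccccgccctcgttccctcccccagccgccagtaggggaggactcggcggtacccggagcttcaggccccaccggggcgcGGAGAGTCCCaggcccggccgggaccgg

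The interferon response core was present in 7 of the 8 windows, 1 for each matched gene, against 22.8% of 35116 promoter windows of the same length. The NF-kB consensus was present in 5 of 8 (B2M, HLA-B, HLA-C, TAP1 and TAPBP, against 11.3% of all windows), and the CCAAT box in 5 of 8 (34.6% of all windows). The downstream TAP1 window (chr6:32852712-32853011, minus strand), from a start 943 bases away, held none of these letters. No match to one of these motifs overlapped a match to another. The HLA-B and HLA-C windows were 88.5% identical when aligned, while B2M shared 49.4% of aligned positions with HLA-B. A match describes letters only, and these windows were not assayed for binding.

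The light chain gene was the 1 member that passed the test. B2M, which encodes beta-2-microglobulin, was at 1237, 1192 and 1234 TPM in Amuc_0904 libraries, against 1038, 927 and 976 TPM in buffer libraries. Every Amuc_0904 library lay above every buffer library, and B2M was the most abundant of the 9 genes in all 6 libraries. Its mean of 1221 ± 25.1 TPM in Amuc_0904 libraries was 1.25 times the mean of 981 ± 55.8 TPM in buffer libraries (SD, n = 3 each). In limma the log2 fold change on the log2(TPM + 1) scale was 0.32 (SE 0.059, 95% interval 0.18 to 0.45, adjusted p = 0.047 over 14421 genes). B2M (ENSG00000166710) lies on chromosome 15 from 44711487 to 44718877 on the plus strand in GRCh38 and overlaps no annotated gene. Its call was not kept when any single library was left out, with log2 fold changes of 0.28 to 0.36 and limma adjusted p of 0.068 to 0.17.

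B2M was the 1 member of 9 past an adjusted p of 0.05, with 0 that fell and 8 that did not pass. Across all tested genes 1.37% passed in either direction and 0.368% rose. The 9 log2 fold changes were all positive, at a median of 0.074, whereas 37.5% of all genes were positive, at a median of -0.062. An unadjusted p under 0.05 with a higher level in Amuc_0904 was reached by 2 of the 9, B2M and HLA-B, against 4.49% of all genes. All 9 were also positive after centring libraries on their median, after quantile normalization and after removal of the trend with GC content. The median over all genes was then 0.018, 0.0067 and -0.0016, so the 37.5% of the main fit is not the background there. Centring added the same amount to every log2 fold change (HLA-C went from 0.0028 to 0.083), so it could turn none of the 9 negative. GC removal raised HLA-C to 0.20 and lowered B2M to 0.29. With a library left out, 7 to 9 were positive. Groups did not overlap for 2 of the 9, B2M and HLA-B, both higher in Amuc_0904, against 7% of all genes that were higher without overlap. Of the 9, 0 were lower without overlap, as 20.1% of all genes were. The plot of TPM by library shows how little the other 7 separated.

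**Figure D1:**
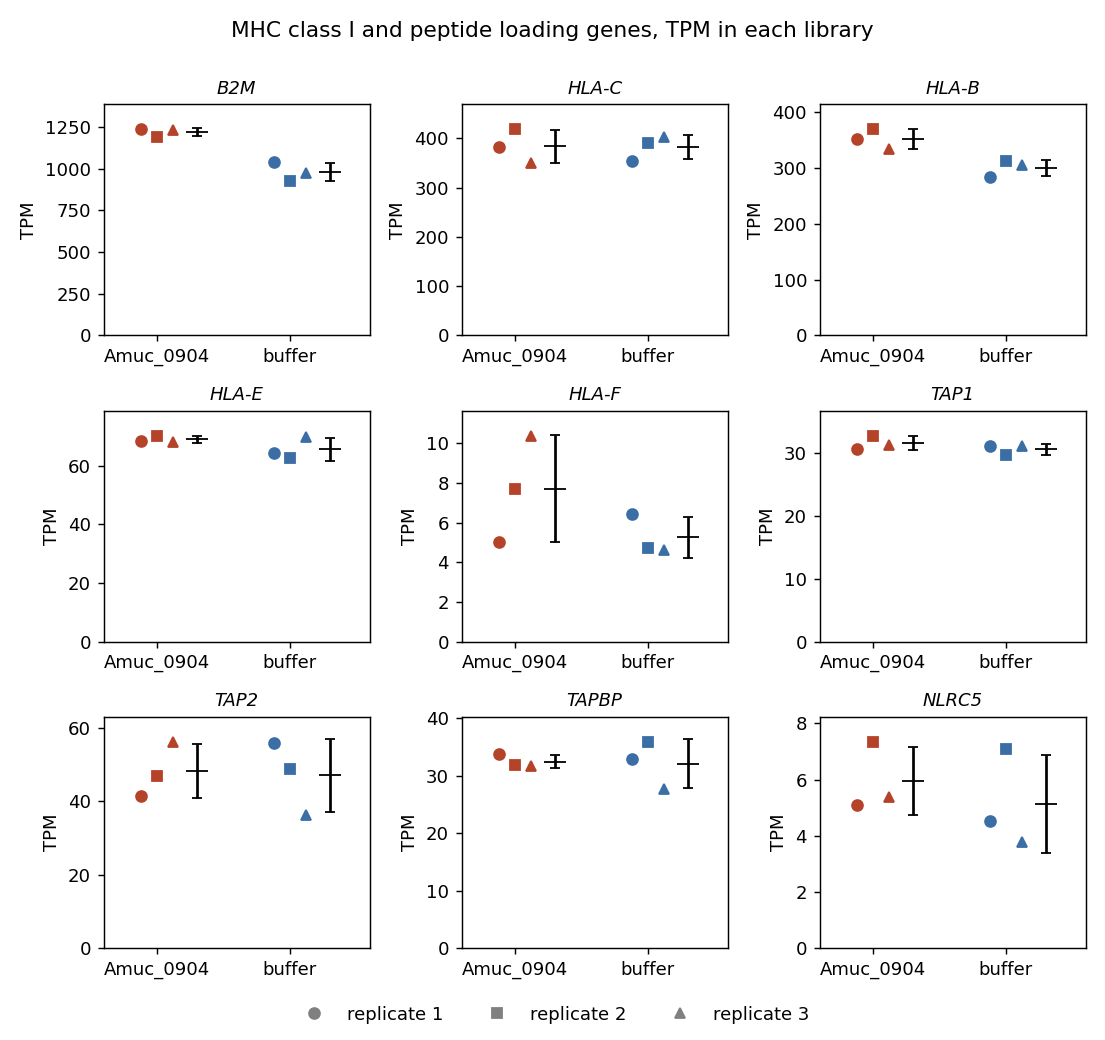
TPM of the 9 genes in each library, with Amuc_0904 left and buffer right in each panel. Symbols are replicates, and the black bar is the mean with SD (n = 3). B2M and HLA-B are the panels in which the 3 Amuc_0904 libraries all lie above the 3 buffer libraries.

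None of the heavy chain members passed over all genes, and HLA-B came closest. HLA-B, a classical heavy chain that presents peptides to CD8 T cells, was at 352, 369 and 334 TPM in Amuc_0904 libraries, against 284, 312 and 305 TPM in buffer libraries. The groups did not overlap, with a mean of 352 ± 17.9 TPM in Amuc_0904 libraries and 300.2 ± 14.6 TPM in buffer libraries (SD, n = 3 each). The log2 fold change of 0.23 (SE 0.063, 95% interval 0.083 to 0.37) did not pass over all genes (limma adjusted p = 0.103). HLA-B did pass once a loess fit on the GC content of transcripts had been subtracted from every library, with a log2 fold change of 0.39 and a limma adjusted p of 0.020. The loess could be of degree 1 or 2 and keep or remove the mean of each library. HLA-B passed in all 4 of these versions, with limma adjusted p between 0.017 and 0.020. Without GC removal, it did not pass with any single library left out (limma adjusted p 0.105 to 0.27). With replicate number as a block in limma its adjusted p was 0.15. With the block and GC removal it was 0.13, or 0.091 where library means were kept.

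HLA-C, the classical heavy chain best known as a ligand of killer cell receptors, was at 382, 419 and 351 TPM in Amuc_0904 libraries, against 354, 392 and 402 TPM in buffer libraries. The groups overlapped throughout. Its log2 fold change was 0.0028 (95% interval -0.18 to 0.18).

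The non-classical heavy chains did not pass either. HLA-E, which binds signal peptides of other class I molecules and is read by natural killer cells, was at 68.5, 70.3 and 68.3 TPM in Amuc_0904 libraries, against 64.2, 62.7 and 69.9 TPM in buffer libraries. Buffer replicate 3 reached into the Amuc_0904 range, and the log2 fold change was 0.074 (95% interval -0.073 to 0.22). HLA-F, a non-classical heavy chain expressed at low levels, was at 5.03, 7.72 and 10.4 TPM in Amuc_0904 libraries, against 6.45, 4.71 and 4.64 TPM in buffer libraries. HLA-F had the largest log2 fold change of the 9 (0.44) and the widest interval (-0.076 to 0.96), with Amuc_0904 replicate 1 inside the buffer range. Without Amuc_0904 replicate 3 it was 0.22, and without Amuc_0904 replicate 1 it was 0.68 (limma adjusted p = 0.56 and 0.18).

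Heavy chain genes share much of their sequence, and reads may be split between them with error. In GENCODE 29 on GRCh38, HLA-B (ENSG00000234745, chromosome 6 from 31269491 to 31357188, minus strand) contains a long annotated form that overlaps HLA-C (ENSG00000204525, from 31268749 to 31272130, minus strand). HLA-F (from 29722775 to 29738528) overlaps 3 genes on the opposite strand, including HLA-F-AS1, and HLA-E (from 30489467 to 30494205) overlaps none. Added over the 4 heavy chain members, the level was 807, 866 and 763 TPM in Amuc_0904 libraries, against 709, 771 and 782 TPM in buffer libraries. The summed levels overlapped between groups.

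Within a library, ratios between heavy chains do not depend on how that library was scaled. The HLA-B to HLA-C ratio was 0.921, 0.882 and 0.951 in Amuc_0904 libraries, against 0.800, 0.796 and 0.759 in buffer libraries. It averaged 0.918 ± 0.034 in Amuc_0904 libraries and 0.785 ± 0.023 in buffer libraries (SD, n = 3 each; two-sided exact permutation p = 0.1, the smallest that 3 against 3 allows). The HLA-B to HLA-E ratio was 5.13, 5.25 and 4.89 in Amuc_0904 libraries and 4.42, 4.97 and 4.36 in buffer libraries, with buffer replicate 2 inside the Amuc_0904 range. Of the 3 ratios among HLA-B, HLA-C and HLA-E, 1 did not overlap between groups, that of HLA-B to HLA-C. For comparison, 33.6% of all pairs among the 2594 genes with a mean of at least 50 TPM had ratios without overlap.

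HLA-B made up 43.6%, 42.6% and 43.7% of the TPM of the 4 heavy chains HLA-B, HLA-C, HLA-E and HLA-F in Amuc_0904 libraries, against 40.0%, 40.4% and 39.0% in buffer libraries. HLA-C made up 47.3%, 48.3% and 46.0% in Amuc_0904 libraries, against 50.005%, 50.8% and 51.4% in buffer libraries. HLA-B and HLA-C held most of this sum, so a higher share of HLA-B lowers that of HLA-C. These shares largely restate the HLA-B to HLA-C ratio. The HLA-C level itself averaged 384 ± 33.9 TPM in Amuc_0904 libraries and 383 ± 25.0 TPM in buffer libraries (SD, n = 3 each). The ratio of B2M to these 4 heavy chains was 1.53, 1.38 and 1.62 in Amuc_0904 libraries, against 1.47, 1.203 and 1.25 in buffer libraries, and buffer replicate 1 lay inside the Amuc_0904 range.

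**Figure D2:**
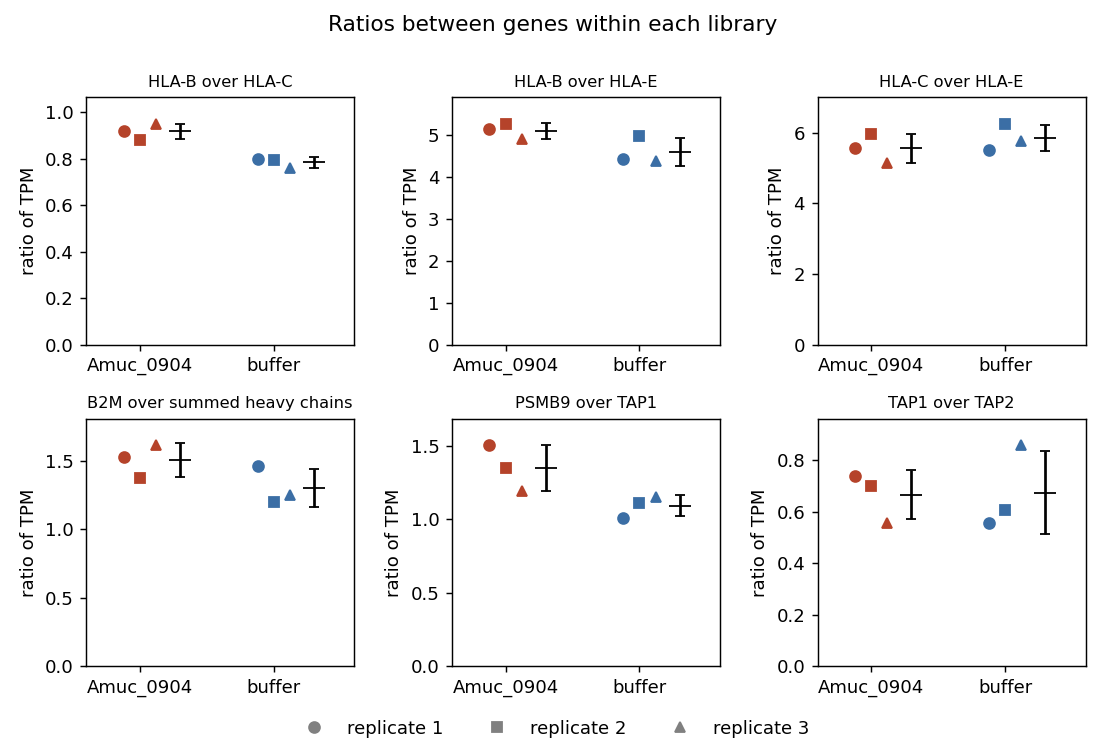
Ratios of TPM between genes within each library, Amuc_0904 left and buffer right, with replicates as symbols and the mean with SD (n = 3) as the black bar. The HLA-B to HLA-C ratio is at 0.882 to 0.951 in Amuc_0904 libraries and 0.759 to 0.800 in buffer libraries, while TAP1 to TAP2 overlaps.

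The peptide transporter and tapasin genes did not pass. TAP1, the first subunit of the transporter, was at 30.7, 32.8 and 31.3 TPM in Amuc_0904 libraries, against 31.1, 29.7 and 31.2 TPM in buffer libraries. The groups overlapped, and the 95% interval of its log2 fold change ran from -0.11 to 0.20 around 0.043. TAP2, the partner subunit, was at 41.5, 47.05 and 56.2 TPM in Amuc_0904 libraries, against 56.0, 48.8 and 36.4 TPM in buffer libraries. TAP2 varied more within groups than between them, with a coefficient of variation of 15.4% in Amuc_0904 libraries and 21.1% in buffer libraries, whereas that of TAP1 was 3.46% in Amuc_0904 libraries and 2.80% in buffer libraries.

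TAPBP, which encodes tapasin, was at 33.7, 31.9 and 31.6 TPM in Amuc_0904 libraries, against 32.9, 35.9 and 27.6 TPM in buffer libraries. Its log2 fold change was 0.020 (95% interval -0.21 to 0.25), and limma adjusted p for TAP1, TAP2 and TAPBP lay between 0.76 and 0.93. The direction of the TAP2 and TAPBP estimates turned when single libraries were left out (-0.12 to 0.18 for TAP2, -0.082 to 0.10 for TAPBP). TAP1 (chromosome 6 from 32845209 to 32853978, minus strand) overlaps PSMB9 and PSMB8-AS1 on the other strand, so without a stated strand protocol reads of these genes may be mixed.

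NLRC5, the class I transactivator, had the lowest mean level of the 9 and did not pass. Its level was 5.11, 7.34 and 5.38 TPM in Amuc_0904 libraries, against 4.51, 7.10 and 3.78 TPM in buffer libraries. Replicate 2 was the highest library of each group, the groups overlapped, and the log2 fold change was 0.20 (95% interval -0.28 to 0.68, limma adjusted p = 0.62). Without buffer replicate 2 the log2 fold change was 0.42, and without Amuc_0904 replicate 2 it was 0.063 (limma adjusted p = 0.35 and 0.91). The gene lies on chromosome 16 from 56989485 to 57083531 on the plus strand.

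By mean level over the 6 libraries, the order was B2M (1101 TPM), HLA-C (383 TPM), HLA-B (326 TPM), HLA-E (67.3 TPM), TAP2 (47.7 TPM), TAPBP (32.2 TPM), TAP1, HLA-F (6.49 TPM) and NLRC5 (5.54 TPM). HLA-B and HLA-C overlapped in Amuc_0904 libraries but not in buffer libraries, where HLA-C was higher. TAPBP and TAP1 overlapped in both groups, as did HLA-F and NLRC5. The other neighbours in this order did not overlap in either group.

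**Figure D3:**
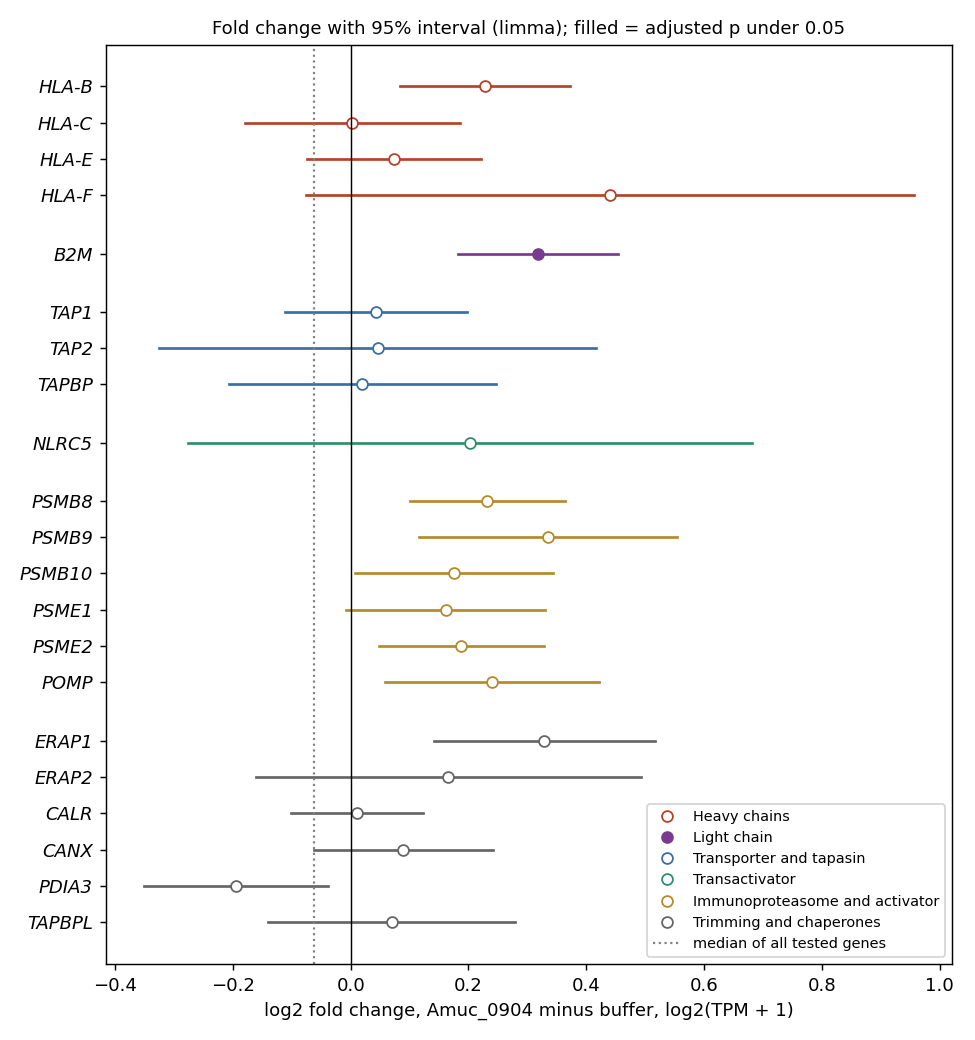
Log2 fold change (Amuc_0904 minus buffer, log2(TPM + 1) scale) with the 95% interval from limma for the class I genes and the genes of peptide supply. The filled point, B2M, passed an adjusted p of 0.05, and the dotted line is the median of all tested genes at -0.062.

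Genes that supply peptide to TAP had positive values but did not pass. All 6 genes of the immunoproteasome and its activator had positive log2 fold changes (0.16 to 0.34, median 0.21), and 0 of 6 passed over all genes in limma (adjusted p 0.083 to 0.26), while 5 had an unadjusted p under 0.05. Over all genes 20.8% had such a p, and 4.49% had one with a higher level in Amuc_0904. Groups did not overlap for 5 of the 6, all higher in Amuc_0904, against 7% of all genes. PSME2, a subunit of the proteasome activator PA28, was at 325, 304 and 292 TPM in Amuc_0904 libraries, against 280, 260 and 268 TPM in buffer libraries. POMP, the proteasome maturation factor, averaged 221 ± 12.9 TPM in Amuc_0904 libraries and 188 ± 16.8 TPM in buffer libraries (SD, n = 3 each; limma adjusted p = 0.14).

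PSMB9, an inducible catalytic subunit, and TAP1 are transcribed in opposite directions from RefSeq starts 488 bases apart (the upstream start of TAP1). The PSMB9 promoter window held 0 matches to the interferon response core, 0 to the NF-kB consensus and 1 to the CCAAT box. That window reaches 250 bases before the PSMB9 start, so it does not cover all of the 488 bases between the starts. The interferon response core and NF-kB matches marked upstream of the TAP1 start lie between the 2 starts but outside the PSMB9 window. PSMB9 was at 46.3, 44.4 and 37.4 TPM in Amuc_0904 libraries, against 31.5, 33.1 and 36.05 TPM in buffer libraries, without overlap (limma adjusted p = 0.106), while the TAP1 groups overlapped. The PSMB9 to TAP1 ratio was 1.51, 1.35 and 1.19 in Amuc_0904 libraries and 1.01, 1.11 and 1.15 in buffer libraries (two-sided exact permutation p = 0.1, the smallest possible). PSMB9 and this ratio were chosen after their values were seen.

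Of 14 chaperone and peptide-trimming genes 0 passed, 7 were positive and 7 negative, with a median of 0.0049. CALR, the chaperone calreticulin of the loading complex, was at 444 TPM in each Amuc_0904 library, against 448, 441 and 433 TPM in buffer libraries. BCAP31, an endoplasmic reticulum export factor, averaged 355 ± 9.30 TPM in Amuc_0904 libraries and 358 ± 1.67 TPM in buffer libraries (SD, n = 3 each). ERAP1, the aminopeptidase that trims class I peptides and chosen after its values were seen, was at 18.1, 17.1 and 18.1 TPM in Amuc_0904 libraries, against 13.9, 14.8 and 13.1 TPM in buffer libraries. The groups did not overlap for ERAP1 (log2 fold change 0.33, limma adjusted p = 0.083). PDIA3 was lower without overlap (log2 fold change -0.19, limma adjusted p = 0.16). Of the 14, 1 was higher and 1 lower without overlap, against 7% and 20.1% of all genes.

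Factors that act on class I promoters were split in direction. Of 16 tested, 0 passed in limma, 10 were positive and 6 negative, and 3 had an unadjusted p under 0.05, against 20.8% of all genes. RELA, the p65 subunit of NF-kB, was at 48.8, 47.4 and 50.3 TPM in Amuc_0904 libraries, against 59.4, 64.5 and 58.1 TPM in buffer libraries, lower without overlap (limma adjusted p = 0.063). RFXANK, a subunit of the RFX complex that binds with NLRC5, averaged 73.9 ± 4.26 TPM in Amuc_0904 libraries and 70.9 ± 0.791 TPM in buffer libraries (SD, n = 3 each). RELB, another NF-kB subunit, and IRF2, an interferon regulatory factor, were both chosen after their values were seen. They had log2 fold changes of 0.35 each with groups that did not overlap (limma adjusted p = 0.083 and 0.106). EZH2 was lower without overlap, at a mean of 47.4 TPM in Amuc_0904 libraries and 51.3 TPM in buffer libraries. Of the 16, 2 were higher and 2 lower without overlap, against 7% and 20.1% of all genes. IRF1, chosen in the same way, was at 24.0, 72.5 and 32.3 TPM in Amuc_0904 libraries, against 35.8, 48.0 and 26.9 TPM in buffer libraries, highest in replicate 2 of each group like NLRC5.

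No interferon signalling gene passed. IFNG and IFNB1 were listed at 0 in all 6 libraries, and of 13 tested receptor and signalling genes 0 passed, with a median log2 fold change of -0.0092. An unadjusted p under 0.05 in limma was reached by 4 of the 13, against 20.8% of all genes. Without overlap 1 was higher (IFNAR1) and 1 lower (SOCS1), against 7% and 20.1% of all genes. SOCS1, chosen after its values were seen, averaged 0.967 ± 0.116 TPM in Amuc_0904 libraries and 2.02 ± 0.698 TPM in buffer libraries (limma adjusted p = 0.14). PTPN2, a phosphatase that restrains JAK signalling, averaged 62.3 ± 2.66 TPM in Amuc_0904 libraries and 58.6 ± 0.961 TPM in buffer libraries, and TYK2, a JAK family kinase, 45.8 ± 3.07 TPM in Amuc_0904 libraries and 57.4 ± 10.5 TPM in buffer libraries (SD, n = 3 each).

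Transcript GC content moved with the groups and differed among the members. The slope of log2 level with GC content, per 10 percentage points, was 0.028, 0.071 and -0.043 in Amuc_0904 libraries, against 0.074, 0.162 and 0.123 in buffer libraries. The longest transcript was 40.6% GC for B2M and 49.1% for TAP2, and between 54.8% and 62.7% for the other 7. With the trend removed, the log2 fold change of B2M was 0.29 in place of 0.32 (limma adjusted p = 0.076), that of HLA-B 0.39 in place of 0.23, and that of HLA-C 0.20 in place of 0.0028 (limma adjusted p = 0.18). Over the 4 versions of this removal the log2 fold change of B2M lay between 0.22 and 0.29, with limma adjusted p between 0.073 and 0.083. The part of GC content in the difference between treatments cannot be told apart from treatment with these 6 libraries.

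The whole table held 197 calls among 14421 genes in limma, 53 higher in Amuc_0904 and 144 lower (73.1% lower). The share of calls that were lower was 49.4% of 85 after median centring, 54.9% of 102 after quantile normalization and 33.6% of 116 after GC removal. It was 58.6% of 174 where GC removal kept the mean of each library. The plot of the 9 genes by processing shows B2M and HLA-B above 0 at every setting.

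**Figure D4:**
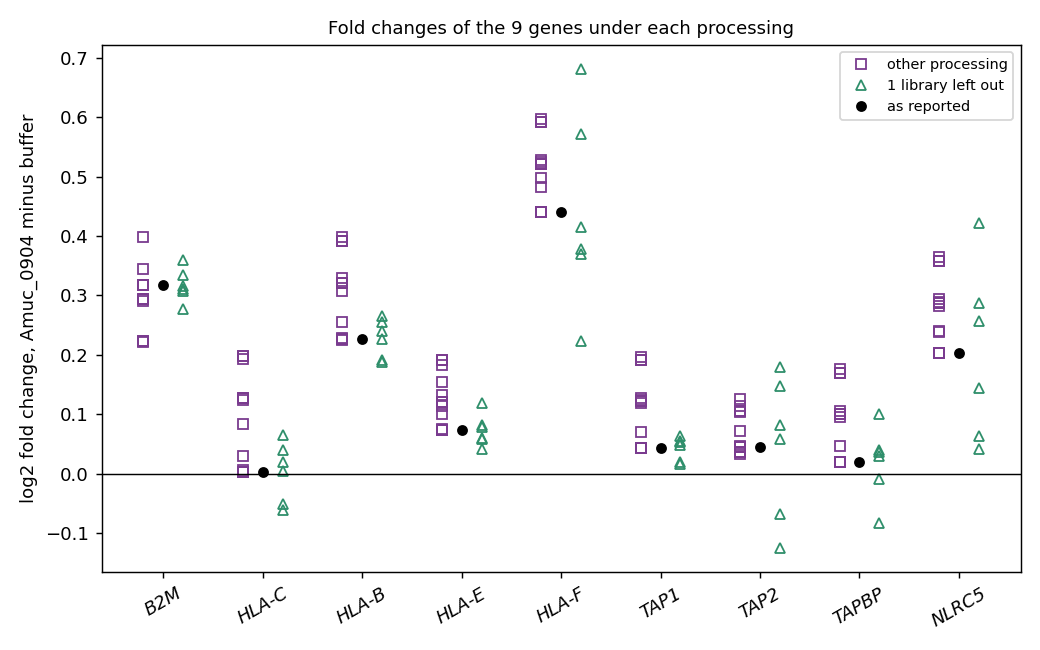
Log2 fold change of each gene as reported (black), with 1 library left out (triangles) and under the other processing choices (squares). B2M ran from 0.22 to 0.40 and HLA-B from 0.19 to 0.40, while HLA-C, TAP2 and TAPBP crossed 0 with a library left out.

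The genes most like B2M in pattern were found by Pearson correlation of log2(TPM + 1) over the 6 libraries, among 5247 genes with a symbol and a mean of at least 20 TPM. They were EXOSC9 (r = 0.993), HSPA8 (0.992), CNBP (0.992), STEAP1 (0.991) and APOBEC3G (0.988). Of these 5, STEAP1 passed in limma (adjusted p = 0.0094), at 49.4 ± 2.49 TPM in Amuc_0904 libraries and 30.6 ± 2.27 TPM in buffer libraries (SD, n = 3 each). Among the members, r with B2M was 0.731 for HLA-B and -0.189 for HLA-C. With 6 libraries that share a treatment difference, these values describe the libraries only.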

How the data were processed

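RNA from 6 SW480 libraries, 3 given Amuc_0904 and 3 given buffer per the labels, was analysed from the gene table the authors deposited, in TPM rounded to 2 decimals. RSEM is named as the quantifier in the design text. The submitters' processing notes name HISAT2, StringTie, RSEM and edgeR without roles, and a mouse build (GRCm38.p6), while the identifiers are human Ensembl genes. The annotation behind the values is therefore not known with certainty. TPM keeps no read depth, so no counting interval is given and no count test was run, and the strand protocol is not given in the sources used here.

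Genes with at least 1 TPM in at least 3 libraries (14421 of 60664) were fitted as log2(TPM + 1) by limma 3.58.1, run under R 4.3.3 (moderated by empirical Bayes along a mean-variance trend, two-sided, Benjamini-Hochberg over all tested genes, threshold 0.05). Fold changes on this scale understate changes of genes at a few TPM. Exact permutation tests of ratios used scipy 1.17.1, and figures matplotlib 3.10.9. The 9 members, the other 9 gene lists and the tests were chosen with earlier results of these data known. Named from each other list were the genes past the threshold or, with none, the 2 tested genes with the highest mean, and some genes of these lists are not reported here. Alternatives covered pseudocount, filters, scaling, GC removal (loess of degree 1, span 0.3, also centring libraries, settled on after comparing 4 versions on these data, for the 14277 genes with a GENCODE 29 transcript), summed HLA rows, replicate block, trend, threshold and each library left out. In simulated data with 14421 genes the Amuc_0904 against buffer fit called 60% of the genes that had been altered 1.5-fold and 88% of those altered 2-fold. False calls made up 3.27% of the calls. The simulated noise was independent between genes, with no shared effect of library or GC content, and genes at low TPM were not altered. The 3.27% therefore does not measure false calls in the real data, and a change as small as that of B2M was not simulated.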

Additional observations from a re-analysis of the deposited data

How the results depend on the processing

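The 197 calls over all genes became 9 with no filter on low TPM, 432 with a filter of 5 TPM, 85 with libraries centred on their median, 102 after quantile normalization, 116 after GC removal, 44 in limma without a trend and 29 at an adjusted p of 0.01. They numbered 35 to 112 with each library left out. B2M, the 1 member called, was lost, leaving 0 of 9, with no filter, with centring, after quantile normalization, without a trend, at an adjusted p of 0.01 and with each library left out. GC removal left 1 member called, HLA-B in place of B2M. The version of GC removal reported (loess of degree 1, libraries centred) was not the first one run. It was settled on after 4 versions had been compared on these data, so none of the 4 is taken here as fixed beforehand. The first one run, degree 1 with library means kept, gave 174 calls, degree 2 gave 113 with centring and 171 with library means kept, and each left HLA-B as the 1 member called. For B2M limma adjusted p ranged from 0.031 to 0.21 over all alternatives. The self-test made calls at this number of libraries for changes of 1.5-fold and 2-fold only, and the cause of these losses was not tested. The other lists held 1 call (CTSS), 3 with a filter of 5 TPM (CTSS, RELA and CDX2), 3 after GC removal (CTSS, PSMB8 and RELB; 2, CTSS and RELB, with degree 2 and library means kept) and 1 to 2 with a library left out.

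For libraries of the same replicate number, deviations from the group means correlated across genes at -0.029, 0.075 and -0.094. For unlike replicate numbers the correlations ran from -0.12 to 0.14. With deviations from means of 3 libraries, these values cannot settle whether libraries were handled in pairs. With the replicate number as a block 80 genes and 0 members were called (B2M adjusted p = 0.088), and with the block and GC removal 12 genes and 0 members (52 and 0 with library means kept).

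Estimates near 0 changed sign. HLA-H was 0.072 after centring, 0.066 after quantile normalization, 0.015 with ribosomal protein and mitochondrial genes left out, and 0.20 after GC removal with or without the block. FCGRT was 0.042, 0.038 and 0.16 after centring, quantile normalization and GC removal, MICA 0.034, 0.035 and 0.073, and BCAP31 0.068 after centring, 0.015 with ribosomal and mitochondrial genes left out and 0.15 after GC removal. KRT18 was 0.020 after GC removal. With library means kept, with or without the block, HLA-H was 0.13, FCGRT 0.087, MICA 0.0027, BCAP31 0.082 and PTPN2 -0.013. With degree 2 HLA-H was 0.19, FCGRT 0.15, MICA 0.064, BCAP31 0.16 and KRT18 0.013, and with degree 2 and library means kept HLA-H was 0.12, FCGRT 0.083, BCAP31 0.089 and PTPN2 -0.016. With each library left out, HLA-C ran from -0.062 to 0.065, TAP2 from -0.12 to 0.18, TAPBP from -0.082 to 0.10, HLA-H from -0.11 to 0.18, FCGRT from -0.11 to 0.032, BCAP31 from -0.030 to 0.0073 and CALR from -0.0020 to 0.023. B2M, HLA-B, HLA-E, HLA-F, TAP1 and NLRC5 stayed above 0 in every alternative run.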

Other observations

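MHC class II and its antigen-processing genes, the counterpart for extracellular peptides, held 1 call among 12 tested, against 1.37% called among all genes and 0.368% called higher. CTSS, which encodes the cathepsin that degrades the class II invariant chain, rose to 25.7 ± 1.45 TPM in Amuc_0904 libraries, against 12.7 ± 0.254 TPM in buffer libraries (SD, n = 3 each; limma log2 fold change 0.96, adjusted p = 0.0026). The other 11 did not pass, with a list median of 0.082. CD74, the invariant chain, chosen after its values were seen, was at 182, 191 and 181 TPM in Amuc_0904 libraries, against 175, 185 and 165 TPM in buffer libraries.

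Of 12 tested class I-like genes, which include ligands of the activating receptor NKG2D and carriers of other cargo, 0 passed, 4 were positive and 8 negative. MICA, an NKG2D ligand, averaged 22.3 ± 1.19 TPM in Amuc_0904 libraries and 23.1 ± 1.15 TPM in buffer libraries, and FCGRT, the neonatal Fc receptor that also pairs with beta-2-microglobulin, 37.9 ± 3.19 TPM in Amuc_0904 libraries and 39.0 ± 3.90 TPM in buffer libraries (SD, n = 3 each). The pseudogene HLA-H was at 8.79 ± 2.09 TPM in Amuc_0904 libraries and 8.76 ± 1.57 TPM in buffer libraries.

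Among markers of other cell types, CD68, a lysosomal protein of macrophages, was at 3.11, 2.33 and 3.08 TPM in Amuc_0904 libraries, against 1.68, 1.10 and 1.48 TPM in buffer libraries, without overlap (limma adjusted p = 0.077). It was the 1 of 3 tested markers of this list that was higher without overlap, against 7% of all genes. COL1A1, a fibroblast collagen, averaged 1.57 ± 0.290 TPM in Amuc_0904 libraries and 2.49 ± 0.756 TPM in buffer libraries. Of the epithelial keratins, KRT8 averaged 3040 ± 188 TPM in Amuc_0904 libraries and 3484 ± 79.4 TPM in buffer libraries, and KRT18 2662 ± 130 TPM in Amuc_0904 libraries and 2865 ± 76.7 TPM in buffer libraries (SD, n = 3 each; limma adjusted p = 0.14 and 0.35). Of the 5 tested epithelial markers 4 were lower without overlap (KRT8, KRT19, EPCAM and CDX2), against 20.1% of all genes. CDX2, chosen after its values were seen, averaged 18.7 ± 0.528 TPM in Amuc_0904 libraries and 28.0 ± 5.22 TPM in buffer libraries (limma adjusted p = 0.077). Whether these values bear on the class I genes was not tested.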
